A study of Mus musculus with 16 samples.

Results

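Of 16 RNA sequencing libraries made from mouse gonadal fat, 6 were high in transcripts of ciliated epithelium. Several of the others held these at lower levels, and Sham_Veh4 was above all 6 for some genes shared by cilia and sperm tails. The 6 were chosen by a measured value, Foxj1, the transcription factor that drives motile cilia. A library belonged to the set at 40 CPM or more (the count of a gene scaled to the total counts of its library). The 6 libraries were Sham_Veh1, Sham_Veh2, VX_Veh1, VX_Veh2, VX_Veh3 and VX_SHU2. The other 10 were below that level, so the difference between 6 and 10 libraries in Foxj1, and in any gene measured in the same libraries, is a description and carries no test.

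All mice were lean C57BL/6J males of 16 weeks on standard chow. They had a sham operation (Sham) or a subdiaphragmatic vagotomy (sDVX, VX in the library names), which cuts the vagus nerve below the diaphragm. After 4 weeks, vehicle (Veh) or SHU9119 (SHU), an antagonist of the brain melanocortin receptors, entered the cerebral ventricles for 2 weeks, SHU9119 at 1 nmol a day, under isocaloric feeding. Each of the 4 groups had 4 libraries of polyA RNA. Nothing in the labels says that the 4 libraries of a group are 4 mice, so the p-values below measure the spread between libraries.

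Motile cilia are built on a ring of paired microtubules around a central pair. Dynein arms on the outer doublets pull on their neighbours, and the nexin links, radial spokes and central pair set the rhythm. Multiciliated cells line the airway, oviduct, brain ventricles and, in the male, the efferent ducts between testis and epididymis, while the sperm tail uses many of the same parts or close paralogues of them.

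Foxj1 (chromosome 11, 116330704 to 116335499, mm10) stood at 112.7 CPM in Sham_Veh1, 119.1 in Sham_Veh2, 319.5 in VX_Veh1, 92.3 in VX_Veh2, 73.5 in VX_Veh3 and 57.7 in VX_SHU2. In the other sham libraries it was at 0.620 (Sham_Veh3), 16.0 (Sham_Veh4), 0.465 (Sham_SHU1), 0.454 (Sham_SHU2), 16.4 (Sham_SHU3) and 7.13 CPM (Sham_SHU4). In the other sDVX libraries it was at 0.271 (VX_Veh4), 4.63 (VX_SHU1), 0.196 (VX_SHU3) and 1.90 CPM (VX_SHU4). The lowest member, VX_SHU2, was thus 3.51-fold above the highest library outside, Sham_SHU3, and a threshold of 20 CPM gave the same 6. Within the 6 the level still spanned 5.54-fold, with VX_Veh1 at the top. Intermediate values in Sham_Veh4, Sham_SHU3, Sham_SHU4 and VX_SHU1 make the split a division of a graded series rather than of presence and absence. By label, 2 of 4 sham vehicle, 0 of 4 sham SHU9119, 3 of 4 sDVX vehicle and 1 of 4 sDVX SHU9119 libraries were members.

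The other markers given for this tissue were followed in every library. Dnah5 (chromosome 15, 28154854 to 28472045), a heavy chain of the outer dynein arm, ranged from 18.6 CPM (VX_SHU2) to 151.2 CPM (VX_Veh1) in the 6 and reached at most 6.51 CPM (Sham_SHU3) in the 10. Rsph4a (chromosome 10, 33905111 to 33916021), a radial spoke head protein, ranged from 16.5 to 136.3 CPM in the 6 and reached at most 4.05 CPM in the 10. Neither gene overlapped between the sets. Cfap65 (chromosome 1, 74902071 to 74935626), a protein of the central pair apparatus that sperm tails also need, did overlap. It stood at 35.9 to 259.1 CPM in the 6, but at 62.9 CPM in Sham_Veh4 and 36.0 CPM in Sham_SHU3, both of which were low in Dnah5 and Rsph4a. Foxj1 separated the sets by the rule itself. Of the other 3 markers, Dnah5 and Rsph4a separated them and Cfap65 did not.

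**Figure D1:**
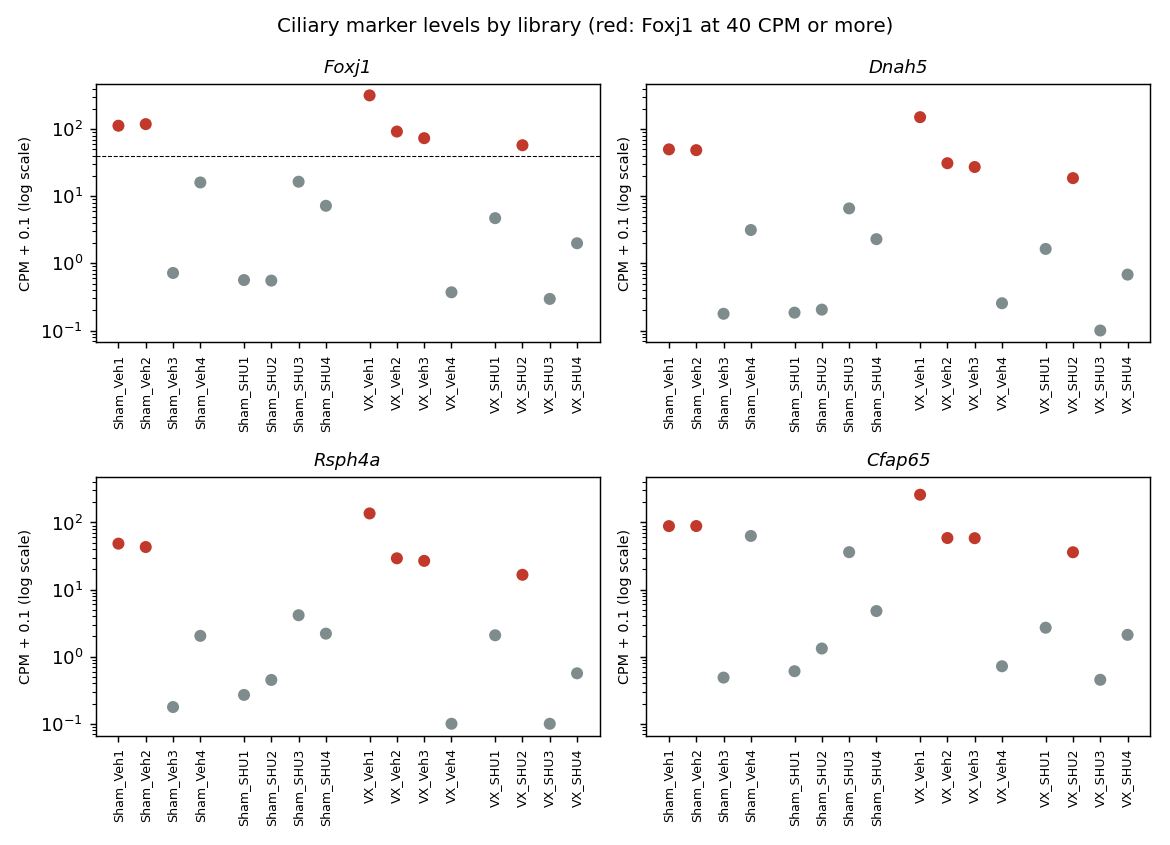
CPM + 0.1 on a log axis for Foxj1, Dnah5, Rsph4a and Cfap65 in each of the 16 libraries, ordered by labelled group (red, Foxj1 at 40 CPM or more; dashed line, 40 CPM). The 6 red libraries lie above all others for Foxj1, by the rule itself, and for Dnah5 and Rsph4a. Cfap65 in Sham_Veh4 (62.9 CPM) and Sham_SHU3 (36.0 CPM) lies within the red range.

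The promoters of a few members are shown for a short stretch of letters, a half-site of the X-box that the cilium regulators of the RFX family recognise. The following windows run from 250 bases before to 50 bases after the RefSeq start (GRCm38.p6). Ccdc153 (chr9:44240427-44240726, plus strand), Sntn (chr14:13670626-13670925, plus strand) and Dynlrb2 (chr8:116504765-116505064, plus strand) are multiciliated cell genes without overlap between 6 and 10. Hydin (chr8:110266727-110267026, plus strand) is a central pair gene shared with sperm, and Cldn2 (chrX:139800558-139800857, plus strand) is a tight junction gene that followed Foxj1 in the same libraries. Capitals mark the half-site GTTGCC, or its reverse complement, and not a whole X-box.
Ccdc153: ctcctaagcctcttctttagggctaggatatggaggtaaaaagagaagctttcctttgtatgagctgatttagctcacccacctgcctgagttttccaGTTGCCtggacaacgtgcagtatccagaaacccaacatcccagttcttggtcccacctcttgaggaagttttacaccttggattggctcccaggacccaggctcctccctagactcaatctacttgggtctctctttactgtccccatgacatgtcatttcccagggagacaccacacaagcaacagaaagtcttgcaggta
Sntn: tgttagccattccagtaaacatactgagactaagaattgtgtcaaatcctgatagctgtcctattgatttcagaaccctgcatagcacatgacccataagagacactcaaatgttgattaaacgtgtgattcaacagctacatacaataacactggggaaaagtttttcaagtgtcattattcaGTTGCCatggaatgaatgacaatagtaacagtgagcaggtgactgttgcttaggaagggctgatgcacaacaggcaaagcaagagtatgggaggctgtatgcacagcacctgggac
Dynlrb2: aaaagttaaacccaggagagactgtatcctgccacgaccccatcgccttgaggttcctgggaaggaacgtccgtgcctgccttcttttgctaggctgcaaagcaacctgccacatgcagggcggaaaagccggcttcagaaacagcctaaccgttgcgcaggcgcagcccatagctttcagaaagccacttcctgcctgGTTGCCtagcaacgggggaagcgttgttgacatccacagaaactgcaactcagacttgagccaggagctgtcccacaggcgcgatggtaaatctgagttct
Hydin: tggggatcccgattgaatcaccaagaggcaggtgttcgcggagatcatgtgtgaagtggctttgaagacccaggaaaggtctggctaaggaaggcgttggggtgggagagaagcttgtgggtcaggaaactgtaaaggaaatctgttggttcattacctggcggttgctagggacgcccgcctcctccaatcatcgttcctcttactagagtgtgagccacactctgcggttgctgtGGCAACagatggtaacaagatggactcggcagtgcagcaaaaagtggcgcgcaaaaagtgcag
Cldn2: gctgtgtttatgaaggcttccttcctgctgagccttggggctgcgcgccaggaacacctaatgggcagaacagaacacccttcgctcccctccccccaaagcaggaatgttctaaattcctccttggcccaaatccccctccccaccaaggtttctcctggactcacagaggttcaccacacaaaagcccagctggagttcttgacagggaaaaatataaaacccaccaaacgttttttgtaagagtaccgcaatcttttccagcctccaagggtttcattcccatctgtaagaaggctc

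The half-site began 152, 66, 51 and 13 bases before the start in Ccdc153, Sntn, Dynlrb2 and Hydin, and these letters were not in the Cldn2 window. Searched on both strands, GTTGCC was in 48 of 93 ciliary list genes with a window (51.6%) and in 3821 of 27025 genes in all (14.1%). Genes of general cilium transport, which primary cilia use too, had a similar share, at 10 of 20 (50%). The ciliary lists differed, from 0 of 2 docking, 1 of 7 outer arm and 1 of 5 radial spoke genes to 6 of 8 dynein assembly genes. Among genes called higher in the 6 but in no ciliary list, 67 of 437 (15.3%) held the half-site. Of the 5 windows shown, that of Hydin alone also held a longer X-box pattern, with both half-sites in a looser form at the fixed spacing searched. This pattern does not require the letters GTTGCC. Other spacings were not covered, and in Dynlrb2 a near match to the reverse complement followed the marked half-site more closely. The longer pattern was in 20 of the 93 ciliary genes (21.5%), 5 of 20 general cilium transport genes (25%) and 673 of all 27025 (2.49%). Its order by list was not that of the half-site. It was in 2 of 2 docking and 5 of 8 dynein assembly genes, and in 0 of 7 outer arm and 0 of 5 radial spoke genes. A match is a description of letters and not of binding.

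The ciliary programme was described with 10 lists that hold 114 genes, of which 110 had values and 107 passed the low-count filter in the comparison of 6 with 10 libraries. A gene was called when its adjusted p was under 0.05, used here only as a yardstick of size against spread. By this rule 604 of 17004 genes (3.55%) were called higher in the 6 and 72 (0.423%) lower, and 963 (5.66%) had all 6 values above the other 10. In the ciliary lists 15 genes were called higher, 0 lower, and 16 of 110 did not overlap. The median log2 fold change was 1.01 over the ciliary genes tested and -0.05 over all genes. Leaving out 1 library at a time left 8 (without VX_Veh4) to 134 (without VX_SHU1) lower calls, and a replicate block left 0. Since Foxj1 chose the libraries, nothing is read from these counts.

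The overlap came from specific libraries. For 93 of the 110 genes the highest of the 10 was Sham_Veh4, and for 12 it was Sham_SHU3. These were the libraries with the highest summed CPM of 15 sperm tail and spermatid genes, 3026 in Sham_Veh4 and 1442 in Sham_SHU3, against 24.8 to 373.4 in the remaining 14. Sham_Veh4 was above all 6 members for 33 ciliary genes. Its summed ciliary lists reached 2640 CPM, below VX_Veh1 (5442 CPM) but above every other member. Those of Sham_SHU3 reached 1446 CPM, above VX_Veh3 (1439 CPM) and VX_SHU2 (1168 CPM). When both libraries were left out, an alternative added after the data were seen, 89 of the 110 genes had all 6 values above the remaining 8, and 76 of 106 tested were called higher. The shares over all genes were then 9.70% without overlap and 4.65% called higher, and the ciliary median log2 fold change was 3.26 against -0.03 for all genes. Sham_Veh4 and Sham_SHU3 also had the highest Foxj1 of the 10, at 16.0 and 16.4 CPM. The highest Foxj1 among the 8 was 7.13 CPM (Sham_SHU4). Leaving both out therefore widened the Foxj1 gap between the sets as well as removing the highest sperm sums. All figures against the 8 are thus a description too, and the part of sperm RNA in the change was not tested.

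**Figure D2:**
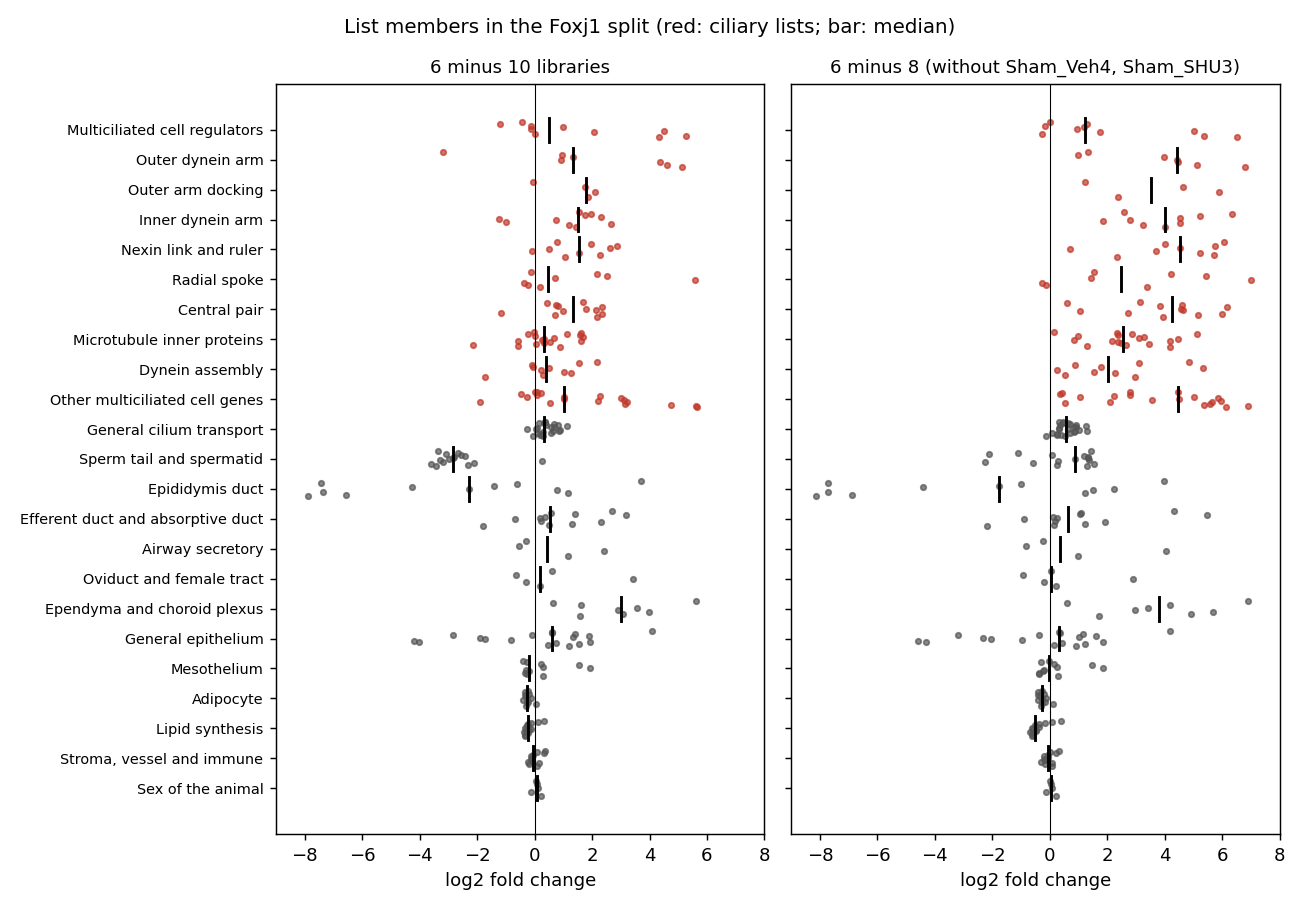
Log2 fold change of each list member (dots; bars, medians; red, ciliary lists) between the 6 libraries and the other 10 (left) or the other 8 (right). The ciliary median moves from 1.01 to 3.26 and that of the sperm list from -2.83 to 0.89.

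Among the regulators, the members without overlap were Foxj1, Gmnc (geminin coiled-coil protein, which starts the multiciliated fate) and Trp73 (a p53 relative needed in multiciliated cells). Gmnc was at 13.3, 12.5, 34.5, 4.90, 5.95 and 4.76 CPM in Sham_Veh1, Sham_Veh2, VX_Veh1, VX_Veh2, VX_Veh3 and VX_SHU2 and at no more than 1.32 CPM elsewhere. Trp73 was at 3.98 to 28.2 CPM in the 6 and at most 1.51 CPM elsewhere. Mcidas, which acts with Gmnc early in differentiation, was at 0.0720 to 1.18 CPM in the 6 and did not pass the filter. Rfx2 and Rfx3, the X-box factors, overlapped, with Rfx2 at 62.0 CPM in Sham_Veh4 against 14.9 to 44.2 CPM in the 6. E2f4 and Plk4, which also work in dividing cells, were at 28.2 to 34.7 and 7.88 to 9.92 CPM in the 6, against medians of 30.7 and 10.4 CPM in the 10.

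The outer dynein arm held 4 of 7 genes without overlap. Dnah9 and Dnah11, heavy chains like Dnah5, were at 14.1 to 99.4 and 11.9 to 95.8 CPM in the 6 and at most 3.71 and 4.24 CPM in the 10. Dnal1, a light chain, was present everywhere (12.2 to 18.3 CPM in the 10) and was only moderately higher in the 6, at 22.0 to 65.0 CPM. Nme8, a protein also made in testis, went the other way, at 0.245 to 1.33 CPM in the 6 and 29.3 CPM in Sham_Veh4. None of the 4 docking genes and none of the 10 inner arm genes was free of overlap with the 10, but 3 and 9 of them were with the 8. Dnah6, an inner arm heavy chain, was at 15.2 to 101 CPM in the 6, 17.4 CPM in Sham_Veh4 and 9.08 CPM in Sham_SHU3. The near-identical Dnah7a, Dnah7b and Dnah7c may share reads, so their separate values are uncertain.

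The links, spokes and central pair repeated this. All 9 nexin link and ruler genes and all 12 central pair genes lay above the 8, and 0 and 1 of them above the 10. Ccdc40, part of the ruler that spaces the arms, was at 14.0 to 99.5 CPM in the 6, 26.2 CPM in Sham_Veh4 and 13.2 CPM in Sham_SHU3, with a median of 0.683 CPM over the 10. Hydin was at 12.0 to 87.1 CPM in the 6, 18.9 in Sham_Veh4 and 13.2 in Sham_SHU3. Rsph1, a spoke head protein used in both cell types, was higher in Sham_Veh4 (127 CPM) than in VX_Veh1 (93.1 CPM). Of the 8 radial spoke genes with values, Rsph3a and Rsph3b, a paralogue pair that may share reads, stayed at 6.14 to 7.54 and 3.28 to 4.31 CPM in the 6, against medians of 7.31 and 4.11 CPM in the 10.

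The microtubule inner proteins and the dynein assembly factors contained no gene without overlap with the 10, and 15 of 18 and 9 of 11 without overlap with the 8. Tekt1, a tektin filament protein, was at 9.84 to 59.1 CPM in the 6 and 44.1 CPM in Sham_Veh4. Dnaaf1, which helps to fold dyneins before transport, was at 3.88 to 19.5 CPM in the 6 but 118 CPM in Sham_Veh4 and 50.9 CPM in Sham_SHU3. Meig1, from the list of other multiciliated cell genes and needed for spermatid maturation, had the same order, at 5.11 to 17.7 CPM against 148 and 68.5 CPM.

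Of 19 further genes known from multiciliated cells, 7 did not overlap. Ccdc153 was at 74.5, 76.7, 238, 52.1, 46.7 and 36.4 CPM in the 6 in the order used above, and its highest value elsewhere was 6.77 CPM (Sham_SHU3). Tmem212 was at 19.7 to 122 CPM against at most 3.86 CPM, and Sntn, a protein of the cilium tip, at 9.10 to 77.5 against at most 2.95 CPM. Fam183b, Dynlrb2 (a dynein light chain), Odf3b and Ccdc170 completed this group, with at most 8.68, 7.66, 3.48 and 1.55 CPM outside the 6. Per kilobase of exon, the mean level over the 6 was 68.8 CPM for Ccdc153, 64.3 for Tmem212, 49.2 for Foxj1, 13.7 for Rsph4a and 3.48 for Dnah5, with the short Ccdc153 and Tmem212 highest among these and the long dynein heavy chain lowest. Tubb4b, a tubulin found in many cells, was at 131 CPM per kilobase and its range overlapped.

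Paralogue pairs separated the libraries further. Dnah8, Dnah17 and Rsph6a are the sperm tail counterparts of Dnah5, Dnah9 and Rsph4a. In Sham_Veh4 they stood at 124, 75.2 and 34.1 CPM and in Sham_SHU3 at 50.2, 31.9 and 11.9 CPM. The ratio of Dnah5 to Dnah8 was 7.83 to 96.5 in the 6 and 0.0246 in Sham_Veh4 and 0.130 in Sham_SHU3. Rsph4a to Rsph6a ran from 29.8 to 278.4 in the 6 and was 0.0570 and 0.340 in the same pair of libraries. In each pair the ciliated-epithelium member was the more abundant in the 6 and the sperm tail member in Sham_Veh4 and Sham_SHU3.

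**Figure D3:**
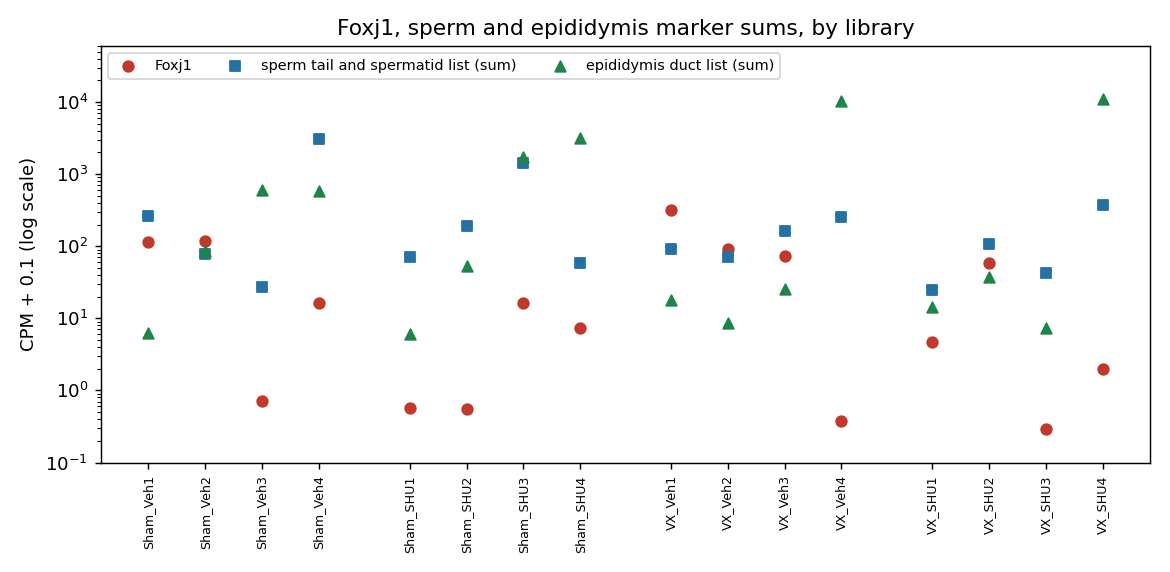
CPM + 0.1 on a log axis in each library for Foxj1 (circles) and for the summed lists of sperm (squares) and epididymis duct genes (triangles). Sham_Veh4 and Sham_SHU3 have the highest sperm sums (3026 and 1442 CPM), VX_Veh4 and VX_SHU4 the highest epididymis sums (10260 and 11140 CPM), and none of these 4 is among the 6 with high Foxj1.

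Within the 6 libraries, most ciliary genes kept a nearly fixed proportion to Foxj1. Foxj1 varied by a coefficient of variation of 74.4% over the 6 libraries, but the ratio of Ccdc153 to Foxj1 varied by 9.07%, that of Tmem212 by 8.80%, that of Dnah9 by 9.58% and that of Cfap65 by 11.3%. Of the 110 ciliary genes, Foxj1 included, 76 (69.1%) had a ratio that varied by under 20%, and 94 (85.5%) had levels that varied by over 50%. Over all 17004 genes tested the shares were 5.88% and 17.3%. The other 34 included Nme8 (77.0%), Mcidas (58.2%), E2f4 (47.6%) and Plk4 (42.8%), and the regulators were the ciliary list with the smallest share under 20%, at 4 of 12. These values describe libraries in which Foxj1 is known to be high and come from 6 points that share one denominator. Tubb4b (39.1%), also one of the 34, and Adipoq (54.5%), the adipocyte hormone adiponectin, did not hold such a ratio. In tissue RNA, more cells and more RNA per cell cannot be told apart, so the fixed ratios do not say which of them differed.

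**Figure D4:**
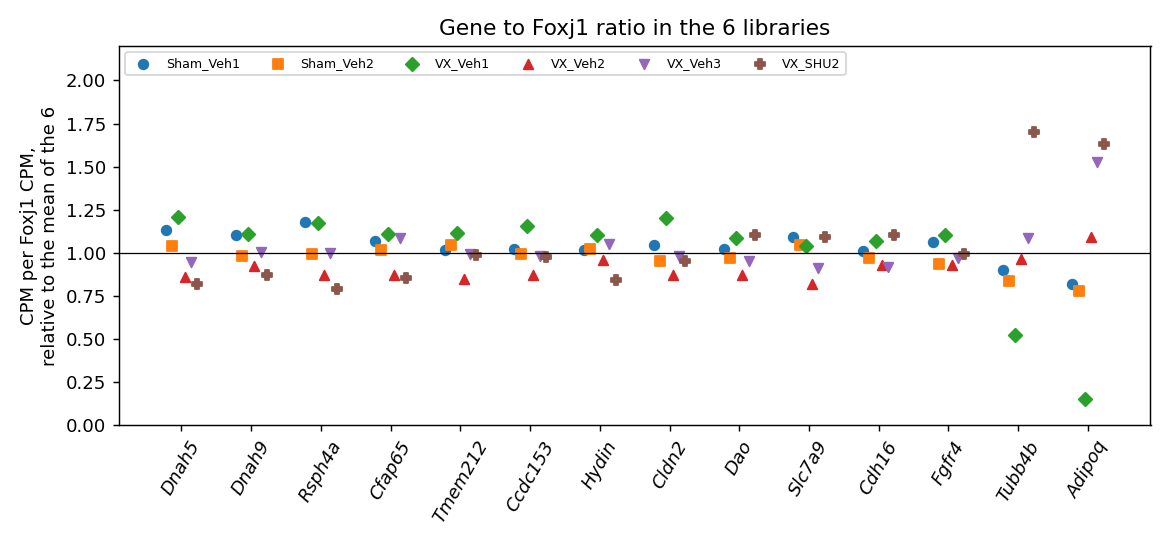
CPM of each gene divided by Foxj1 CPM in the 6 libraries, relative to the mean ratio of that gene (1, line). Points of Cldn2, Dao, Slc7a9, Cdh16, Fgfr4 and the ciliary genes shown as examples, other than Tubb4b, lie close to 1. Tubb4b, also of a ciliary list, and Adipoq spread widely, with VX_Veh1 lowest.

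Below the threshold the proportions were mostly different. The 93 ciliary genes other than Foxj1 with a mean of at least 5 CPM in the 6 were compared in the 5 libraries with 49 or more Foxj1 counts, a limit set after these counts were seen. In Sham_SHU4, with 149 Foxj1 counts, 16 of the 93 ratios lay inside the range of the 6, 60 above it and 17 below, with a median of 1.69 times the mean ratio of the 6. In VX_SHU1, with 105 counts, 15 lay inside, 71 above and 7 below, with a median of 1.88 times. Dnah5 per Foxj1 was 0.309 in Sham_SHU4 and 0.333 in VX_SHU1, against 0.322 to 0.473 in the 6. Rsph4a per Foxj1 was 0.295 in Sham_SHU4 and 0.429 in VX_SHU1, against 0.286 to 0.428 in the 6. Cfap65 per Foxj1 was 0.658 in Sham_SHU4 and 0.562 in VX_SHU1, against 0.623 to 0.811 in the 6. In Sham_SHU3 and Sham_Veh4, with 434 and 420 counts, 4 and 0 lay inside and the medians were 4.32 and 7.78 times, Meig1 being farthest above in both. In VX_SHU4, with 49 counts, 1 lay inside and the median was 5.61 times. Genes that other cells also express, such as E2f4 and Plk4, are among the 93, and their part in these counts was not tested. Libraries with 5 to 16 Foxj1 counts are too shallow for a ratio.

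The ciliary lists hold few of the genes tested, and 589 of the 604 genes called higher were in none of them. Unlisted genes can still belong to ciliated cells. The 604 together took 1.32% to 4.48% of counts in the 6 and 0.505% to 0.774% in the 10. Among the 20 largest differences were Ccdc121, Nme9, Fam216b, Ccdc153, Tmem212 and Rsph4a, alongside Cldn2, Slc7a9 (an amino acid transporter of kidney and gut brush border), Dao (D-amino acid oxidase) and Iyd (iodotyrosine deiodinase). Mt3, Crabp1, Igfbp1 and Fndc7 were also among them. Fndc7 was at 35.3 to 215 CPM in the 6 and at most 8.06 CPM elsewhere.

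Lists other than the ciliary ones also held genes with a steady ratio to Foxj1 in the 6. It varied by under 20% for 8 of 12 efferent and absorptive duct genes and 14 of 18 general epithelial genes. The same held for 7 of 9 genes of the ependyma and choroid plexus list, in which Enkur and Tmem212 are also ciliary list genes. It held for 0 of 12 adipocyte and 0 of 15 sperm genes. Cldn2, a claudin of leaky, water-moving epithelia (chromosome X, 139800808 to 139811386), was at 141, 135, 459, 96.2, 86.4 and 65.6 CPM in the 6 and at most 15.9 CPM (Sham_SHU3) elsewhere. Its ratio to Foxj1 varied by 11.3%. Dao was at 39.8 to 217 CPM with a ratio varying by 8.77%, and Slc7a9 was at 22.8 to 121 CPM. Several more were picked after their values were seen and stand as examples only. These were Ggt1 (gamma-glutamyl transferase), Hnf4a, Vil1 (villin, of microvilli), Cdhr5 (a microvillus cadherin), Fgfr4 and Cdh16 (kidney cadherin), whose ratios varied by 9.92%, 10.5%, 8.63%, 12.3%, 7.09% and 7.48%. Likeness to Foxj1 was ranked by the smallest spread of that ratio, only among genes whose 6 values all lay above the other 10. Within that filter the nearest were Folr1 (folate receptor, 3.81%), Uckl1os (4.75%), Fam81a (4.85%), Crabp1 (retinoic acid binding, 4.96%) and Fndc7 (5.11%). Uckl1os is antisense to Uckl1, and without a stated strand setting its reads cannot be told apart from those of its partner.

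A list of 12 efferent duct and absorptive duct genes was mixed in level, with 3 members without overlap and a median log2 fold change of 0.54. Esr1, the oestrogen receptor that efferent ducts need for fluid uptake, was at 99.5 to 406 CPM in the 6 and 42.8 to 73.0 CPM in the 10. Cftr, the chloride channel, was at 8.61 to 50.1 CPM in the 6 and at most 5.83 CPM in the 10. Amn, which anchors the uptake receptor cubilin, was at 1.08 to 4.06 CPM against at most 0.952 CPM. Lrp2 (megalin) and Pax8 overlapped. VX_Veh4 and VX_SHU4 also held them, with Lrp2 at 168 and 202 CPM and Pax8 at 62.6 and 58.9 CPM. Of 18 general epithelial genes 2 did not overlap (median 0.61), with Epcam at 40.6 to 242 CPM in the 6, 88.0 CPM in VX_Veh4 and 79.1 CPM in VX_SHU4.

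Markers of other multiciliated tissues were checked beside this. The 10 airway secretory genes summed to 34.8 to 102 CPM in the 6 and 27.4 to 141 CPM in the 10, mostly from Cyp2f2 (28.2 to 98.4 CPM in the 6). Their defining members were near 0, with Scgb1a1 at 0.0720 to 0.913 CPM in the 6 and Bpifa1 at no more than 0.0378 CPM in any library. Of 7 oviduct and female tract genes 1 did not overlap and was called higher (median log2 fold change 0.19 over the 5 tested). This was Pgr, the progesterone receptor, at 0.324 to 1.57 CPM in the 6 and at most 0.176 CPM in the 10, a log2 difference of 3.43. Ovgp1, the oviduct glycoprotein, was at 2.40 to 8.08 CPM in the 6 and 1.27 to 3.96 CPM in the 10. The ependyma and choroid plexus list had 5 of 9 genes without overlap, namely Tmem212, Clic6, Kl, Folr1 and Mia. Its members Tmem212 and Enkur are also in ciliary lists. All 8 genes of the list that were tested were above 0. Of them 4 were called higher against the 10 and 6 against the 8, where the median log2 fold change was 3.80. Kcnj13 and Gfap of the same list were at no more than 0.354 and 0.979 CPM in the 6, and Ttr was at 1.33 to 107 CPM there and up to 157 CPM in Sham_SHU4. Of 11 mesothelium genes, from the lining of the abdominal cavity, 2 did not overlap (Krt19 and Rspo1), and the median was -0.19. Xist was at 0.127 to 1.03 CPM and the Y-linked Ddx3y at 122 to 149 CPM in all 16 libraries, which fits the labelled sex. The source of the ciliated epithelium was not tested.

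Of the 72 genes called lower, 2 were in the epididymis duct list (Crisp1 and Rnase9, of 11 tested), and 1 gene of that list was called higher (Teddm1a). Crisp1, a sperm-coating protein of the epididymis, was at 0.249 to 23.6 CPM in the 6. In the 10 it ran from 1.90 CPM (Sham_SHU1) to 7754 CPM (VX_Veh4) and 8355 CPM (VX_SHU4), with a median of 451 CPM, so the ranges overlapped. The other largest lower calls were Serpina1f, Pate2, Ly6f, Cwh43, Odam and the defensins Defb2, Defb9, Defb11 and Defb40, all with ranges that overlapped. Against the 8, Crisp1, Ly6f, Defb11 and Defb40 were not called. Serpina1f, for example, was at most 2.33 CPM in the 6 and 1185 CPM in VX_SHU4. Only 2 of 17004 genes (0.0118%) had all 6 values below the other 10. One member differed from the other 5: Sham_Veh2 held Lcn8, Lcn9 and Cst11, genes of the epididymis head, at 17.9, 9.94 and 3.65 CPM, while no other library passed 0.227 CPM for any of them.

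The 12 genes of the adipocyte list took 1.85% to 4.65% of counts in the 16 libraries. Adipoq was at 2564, 2571, 1355, 2795, 3118 and 2615 CPM in the 6 and at 2199 to 3714 CPM in the 10. The median log2 fold change of 12 adipocyte genes was -0.25 with 0 called, and all 12 ranges overlapped. VX_Veh1, the library with the most Foxj1, was the lowest of all 16 for 10 of the 12. Lipid synthesis genes had a median of -0.25, also with 0 called. Of 24 genes of general cilium transport, which primary cilia use too, 22 were above 0, against 40.91% of all genes, with a median of 0.34. Only 1 was called higher against the 10 (Dync2li1, a motor chain of return transport), a share close to the 3.55% of all genes. Against the 8, however, 19 of the 24 had all 6 values above, where 9.70% of all genes did. Called higher against the 8 were 5 of 24, beside 4.65% of all genes, with a median log2 fold change of 0.58.

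The labelled factors were tested on all 16 libraries in a fit that did not use the Foxj1 split. For SHU9119 against vehicle, averaged over surgeries, Foxj1 was at 62.1 ± 62.5 CPM (SD, n = 4) in sham vehicle, 6.12 ± 7.55 in sham SHU9119, 121 ± 138 in sDVX vehicle and 16.1 ± 27.8 in sDVX SHU9119. The groups overlapped. The log2 difference of -3.02 (SE 1.26) did not pass edgeR's quasi-likelihood test (adjusted p = 0.137). In the same contrast 312 of 16682 genes (1.87%) passed, 251 higher (1.50%) and 61 lower (0.366%), and 0 of 107 ciliary genes did. The ciliary genes were lower in direction under SHU9119 for 102 of 107, against 55.4% of all genes, with a median of -2.11 against -0.03 for all genes. Other epithelial lists moved the same way, with 0 called in each. The median was -2.62 for 7 ependyma and choroid plexus genes (6 lower), which include Enkur and Tmem212 of the ciliary lists. It was -1.08 for 18 general epithelial genes (12 lower) and -1.06 for 12 efferent and absorptive duct genes (11 lower). At an unadjusted p under 0.05 by edgeR there were 68 of 107 ciliary genes, against 4754 of all 16682 genes. The smallest adjusted p among the ciliary genes was 0.0613 (Ccdc170, log2 difference -2.05, SE 0.54, edgeR). The DESeq2 Wald test called 55 of 107 ciliary genes lower, with Foxj1 among the genes past it (adjusted p = 0.0457). It called 2740 of 16685 genes (16.4%) in all and 1399 lower (8.38%). Leaving out Sham_SHU3 alone gave 28 ciliary and 1612 genes in all by edgeR, and leaving out Sham_SHU4 or VX_Veh3 gave 0 and 3.

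**Figure D5:**
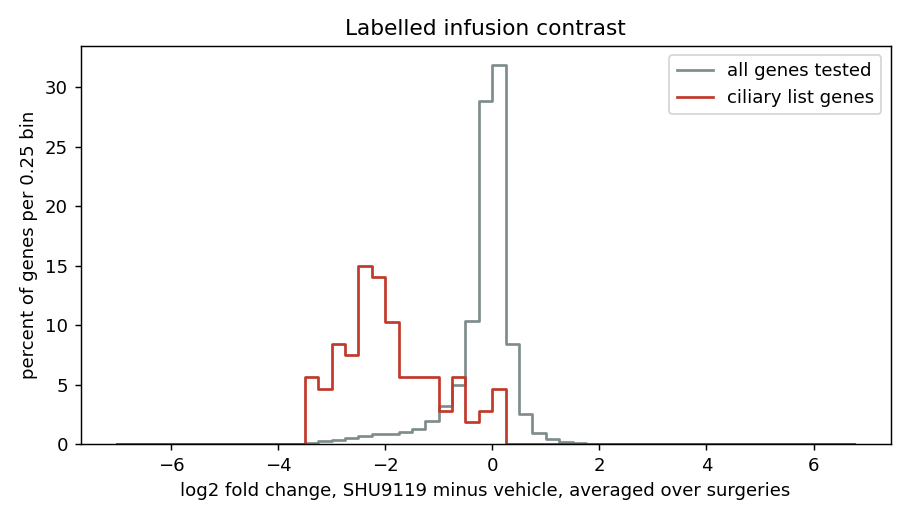
Share of genes per bin of 0.25 in log2 fold change, SHU9119 minus vehicle averaged over surgeries, for all 16682 genes tested (grey) and the 107 ciliary genes (red). The ciliary genes centre at -2.11 and all genes at -0.03, and 0 ciliary genes passed the adjusted threshold.

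Among the other lists in that contrast, Bbs2, a subunit of the BBSome that carries cargo in cilia, fell by 0.72 on the log2 scale (SE 0.16, adjusted p = 0.0443, edgeR). Of 14 lipid synthesis genes 5 rose, namely Insig1 (1.24), Scd2 (1.15), Lss (1.12), Dhcr7 (0.97) and Hmgcs1 (0.78, all log2, adjusted p from 0.0201 to 0.0318 by edgeR), enzymes and a regulator of sterol and fatty acid synthesis. None of the 5 was called without Sham_SHU4 (adjusted p from 0.0577 to 0.0638), without VX_Veh3 (0.0566 to 0.0740) or with a replicate block (0.0648 to 0.0676, all edgeR), with log2 values of 0.77 to 1.26 in these fits. Bbs2 also lost its call in each (adjusted p = 0.0954, 0.0763 and 0.0801, edgeR). Vehicle held 5 of the 6 high Foxj1 libraries and SHU9119 held 1, so these differences and the ciliary level moved together, and the part of one in the other was not tested. Without the 6 libraries, or with log2 Foxj1 as a covariate, 0 genes were called for infusion, with fewer libraries or residual degrees of freedom in each fit. The fit on the 10 remaining libraries had additive terms for infusion and surgery instead of a mean per group, so it is not like for like. It held 7 SHU9119 and 3 vehicle libraries, 1 of them sDVX. These vehicle libraries, Sham_Veh3, Sham_Veh4 and VX_Veh4, had summed epididymis lists of 610, 587 and 10260 CPM. The log2 differences there were 1.23 for Insig1, 1.21 for Scd2, 1.17 for Lss, 0.94 for Dhcr7, 0.92 for Hmgcs1 and -0.53 for Bbs2. In all 16 libraries these differences were 1.24, 1.15, 1.12, 0.97, 0.78 and -0.72. With the covariate they were 1.05, 0.99, 0.80, 0.75, 0.74 and -0.50 in the same order (adjusted p from 0.121 to 0.320, edgeR).

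For sDVX against sham, averaged over infusions, 0 of 16682 genes (0%) and 0 of 107 ciliary genes passed edgeR's test. Unadjusted p was under 0.05 for 2666 of the 16682 genes and 6 of the 107 ciliary genes (edgeR). The DESeq2 Wald test called 432 genes and 0 ciliary ones. The ciliary median was 0.04, and Foxj1 differed by 1.15 on the log2 scale (SE 1.18, adjusted p = 0.628). The interaction of surgery and infusion on Foxj1 was 0.38 (SE 2.34, adjusted p = 0.999), an error too wide to place the difference on either side of 0.

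Library totals ran from 20425295 to 30889052 counts, so the depths of the 6 and the 10 overlapped. The 24 pairs of libraries within groups differed by more than counting error, with a chi-square per degree of freedom of 11.8 to 203.9, and none was a copy of another.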

How the data were processed

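The deposited file holds counts per gene for 16 libraries, made by the authors, with genes as NCBI gene numbers. Per the submitters' processing notes, the authors used bcl2fastq, TopHat, edgeR and mm10 (no versions). How reads were counted, with which annotation and on which strand, is not given in the sources used here, so overlapping genes on opposite strands cannot be told apart. Symbols and mm10 coordinates were matched for 24374 of 24454 gene numbers. CPM used the column sum.

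Counts were analysed in R 4.3.3 with edgeR 4.0.16 (filterByExpr, TMM, robust quasi-likelihood test, Benjamini-Hochberg adjusted p under 0.05). The split fit had the Foxj1 set and infusion as terms (17004 genes). The labelled fit had a mean per group (16682 genes, 12 residual degrees of freedom), and each standard error is the log2 value divided by the root of F. Alternatives were DESeq2 1.42.0 (Wald test, size factors), no filter, other thresholds and covariates, a replicate block and leaving libraries out. The fits were tested on simulated counts.

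Genes named were, by rule, the most abundant members of each list, the markers and paralogue pairs, the 20 largest higher and 10 largest lower calls with a mean of at least 5 CPM, and the 5 with the steadiest ratio to Foxj1. Others, including Ggt1, Hnf4a, Vil1, Cdhr5, Fgfr4, further list members and genes chosen to show overlap, were picked after their values were seen. The libraries, lists and rules were chosen with earlier results of these data known. Dnah3, Dnah12, Rsph10b and Cfap54 were not analysed here. Promoter windows are from RefSeq (GRCm38.p6), and 93 ciliary genes matched one.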

Additional observations from a re-analysis of the deposited data

Results flagged for a closer look

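Within each labelled group of 4 libraries, a value was listed when the gap between 1 library and the next, divided by the range of the group, exceeded Dixon's 95% critical value of 0.829. Of 44 group tests 11 were listed, and chance lists about 1 group in 20 where values are normally distributed. Unlogged CPM were used, and their distribution was not tested. The tests share libraries and genes.

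VX_SHU2 stood apart from the other sDVX SHU9119 libraries for Foxj1 (57.66 against 0.196 to 4.63 CPM), Dnah5 (18.58 against 0 to 1.54 CPM), Rsph4a (16.51 against 0 to 1.98 CPM), Cfap65 (35.9 against 0.352 to 2.60 CPM) and the summed ciliary lists (1168 against 426.3 to 502.3 CPM). VX_SHU2 was the only library of its group taken by the Foxj1 rule, so these flags restate that choice and add no support. Sham_SHU3 stood apart from the other sham SHU9119 libraries for Cfap65 (36.01 against 0.507 to 4.69 CPM) and the summed ciliary lists (1446 against 424.8 to 512 CPM), and also for the summed sperm list (1442 against 59.0 to 190.2 CPM).

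Sham_Veh4 had a summed sperm list of 3026 CPM, against 27.3 to 265.7 CPM in the other sham vehicle libraries. The summed epididymis list reached 10260 CPM in VX_Veh4, against 8.57 to 25.3 CPM in its group, and 11140 CPM in VX_SHU4, against 7.16 to 37.2 CPM.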

How the results depend on the processing

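The 676 genes called between the 6 and 10 libraries became 1579 with the DESeq2 Wald test, 2140 without the infusion covariate, 344 with a mean per labelled group, 1776 with Foxj1 as a continuous term, 98 in the 8 vehicle libraries alone, 0 with a threshold of 80 CPM (4 libraries) and 0 without libraries at 500 CPM or more of epididymis markers. The last setting left 6 against 4 libraries, and the 4 (Sham_SHU1, Sham_SHU2, VX_SHU1 and VX_SHU3) were all SHU9119. Of the 6 only VX_SHU2 was, so split and infusion could hardly be told apart there. Leaving out each library gave 282 to 738, and moved the count by over 1.5 times without VX_Veh4 (282), Sham_Veh3 (314), VX_SHU2 (382) or Sham_Veh4 (445). The 312 genes called for SHU9119 became 167 without the count filter, 2740 with DESeq2, 0 without the 6 libraries, 0 with the Foxj1 covariate and 1706 without Sham_Veh4 and Sham_SHU3, a setting chosen after seeing the data. Leaving out each library gave 3 to 1612: 1612 without Sham_SHU3, 859 without VX_Veh4, 205 without VX_Veh1, 113 without VX_SHU2, and 3 to 34 without Sham_Veh1, Sham_Veh2, Sham_Veh3, Sham_SHU1, Sham_SHU2, Sham_SHU4, VX_Veh3, VX_SHU1 or VX_SHU3. The 0 ciliary genes for SHU9119 became 55 with DESeq2, 11 without Sham_Veh4 and Sham_SHU3, and 0 to 28 on leaving out each library (28 without Sham_SHU3, 8 without VX_Veh4, 1 without Sham_Veh4). The 0 genes for sDVX became 432 with DESeq2. The cause was not tested.

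The log2 difference of Foxj1 for SHU9119 became 0.38 without the 6 libraries and 0.43 with its own log2 CPM as a covariate, and that for sDVX -2.09 and -0.17, settings that select on or adjust for Foxj1 itself. Leaving out each library gave -0.25 (without VX_SHU2) to 1.71 (without Sham_SHU3) for sDVX. Over 23 alternatives Bbs2 was called in 9, Insig1 and Lss in 11, Hmgcs1 in 12, Scd2 in 14 and Dhcr7 in 18, each in the direction given above.

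With the replicate number as a block, the counts were 113 for the split, 0 for SHU9119 and 0 for sDVX. Correlation of deviations from group means gave no clear pairing by number. Over 24 same-numbered pairs, r ran from -0.689 to 0.676 and 13 exceeded 0.1. Of 16 libraries, 5 correlated best with their own number. Differently numbered pairs reached 0.726 (Sham_Veh4 with Sham_SHU3) and -0.765 (VX_Veh2 with VX_SHU4). The summed ciliary, sperm and epididymis lists varied within groups, so this check could not exclude a pairing. Genes near 5 counts in a library have little depth for a ratio.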
